A study of Caenorhabditis elegans with 18 samples.

Results

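The transcriptome of worms exposed to the small molecule LK34 was compared directly with that of worms exposed to LK35. Both compounds belong to a set of 5 that the study selected as stimulators of host defense in Caenorhabditis elegans. The comparison uses 6 of the 18 arrays in the series: 3 labelled LK34 and 3 labelled LK35, each set lettered A, B and C, taken by their labels alone. All animals were N2, the wild-type strain, grown from synchronized larvae for 56 h at 22 °C to young adults. They were then held for 8 h in S Basal medium, a salt buffer, with E. coli OP50 as food and LK34 or LK35 at 100 µM. The DMSO solvent control (3 arrays) is given as a reference level only. Total RNA came from whole animals, about 6000 per well, so fewer cells of a type and less RNA per cell cannot be told apart. Each array reports an intensity per probe set, a group of short probes that usually reads 1 gene, on a linear scale whose floor is 4.605. A value at the floor means that no signal was left after background correction.

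Worms remove foreign small molecules in stages. Flavin monooxygenases, cytochrome P450s and short-chain dehydrogenases modify the molecule, and glutathione S-transferases and UDP-glucuronosyltransferases then attach glutathione or a sugar that makes it easier to export. Many glutathione S-transferase genes are targets of SKN-1, the worm counterpart of mammalian Nrf2, which responds to oxidants and electrophiles. A second system, built around hydrogen sulfide and the oxygen-sensing factor HIF-1, controls genes of sulfur metabolism such as cysl-2 and sqrd-1. Defense against bacteria runs largely through the p38 kinase PMK-1 and the factor ATF-7.

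The arrays of a group did not all resemble each other most. Over the 9033 brighter probe sets, array LK35 B had a mean correlation of 0.9631 with the other LK35 arrays and of 0.9817 with the LK34 arrays. The other LK35 arrays correlated slightly better within their group, A at 0.9581 against 0.9499 and C at 0.9725 against 0.9696. Array LK34 C correlated nearly as well with the LK35 arrays (0.9772) as within its group (0.9779). The gap was wider for LK34 A (0.9531 against 0.9753) and LK34 B (0.9708 against 0.986). LK35 A also had the lowest mean log2 level of the intestine (9.16), body wall muscle (10.87), neuron (6.23), pharynx (3.19) and epidermis (7.41) marker lists among the 6 arrays, although LK35 C (9.17) lay beside it for intestine. The same array had the lowest median intensity over the brighter probe sets among the 6 (356.76, against 411 to 466.51 on the others). The parts of tissue content and of array brightness in the differences were not tested. Between 47.74% and 49.4% of the values on each of these 6 arrays lay at the floor.

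Few genes were called different between LK34 and LK35, and almost all of them were higher with LK34. They include the detoxification genes fmo-2, gst-4, gst-5 and gst-19, the nitrilase gene nit-1 and the cadmium-responsive gene cdr-4. Of 22548 probe sets tested, 18 (0.0798%) were called higher with LK34 than with LK35 and 1 (0.00443%) was called lower. A call here means a Benjamini-Hochberg adjusted p under 0.05 in limma and at least a 2-fold ratio of geometric means. Without the fold limit 19 were higher (0.0843%) and 1 lower (0.00443%), the extra probe set being the second one of mpst-3. All 20 separated the groups, that is, every LK34 array lay beyond every LK35 array. Before adjustment, p fell under 0.05 for 414 probe sets with higher and 92 with lower LK34 levels. A further reading that needs no test, groups that do not overlap and differ at least 2-fold, counted 101 probe sets higher (0.448%) and 11 lower (0.0488%). Without LK35 B, the fit called 19 higher and 0 lower, and without LK35 A it called 13 higher and 0 lower. With 3 arrays against 3, an exact permutation test of a single gene cannot go below p = 0.1. The calls therefore rest on limma's spread for each probe set, pooled over all 6 groups and taken as equal in them. When the spread was estimated from the 6 arrays alone, 3 probe sets were called higher and 0 lower.

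**Figure D1:**
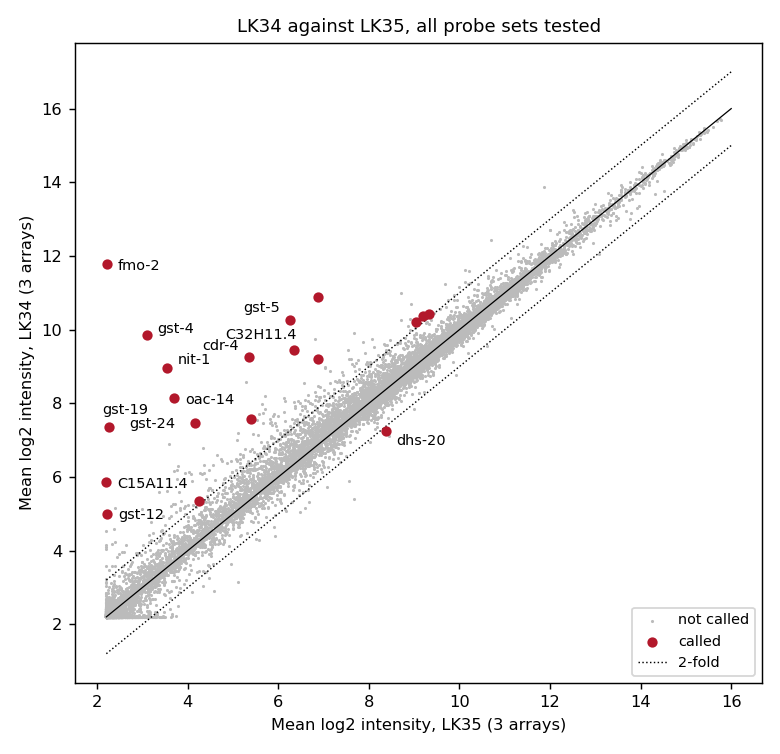
Mean log2 intensity of every probe set tested with LK35 (x axis) and with LK34 (y axis), 3 arrays each; the solid line marks equality, the dotted lines 2-fold, and red points the 19 called probe sets. Called points lie above the upper dotted line except dhs-20, and several have LK35 levels at or near the floor.

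Where the groups did not differ, the data often set a limit on the difference. Of 12567 probe sets above the floor on any of the 6 arrays, 9633 (76.7%) had a 95% interval of the difference that lay wholly within 2-fold in both directions. The remaining 2934 probe sets had intervals that reached 2-fold or beyond, so a missing call there does not show that the compounds act alike. The 12567 include probe sets that left the floor on a single array. Values at the floor do not vary, so narrow intervals there set no limit for transcripts too low to detect. The median difference over the probe sets above the floor was 0.008 on the log2 scale, and the median standard error was 0.215.

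Glutathione S-transferases made up the largest group of called genes, 7 of the 19 probe sets. The family was read once per gene by its brightest probe set. Of 45 genes, 15 lay at the floor on all 6 arrays and 30 above it. Of these, 7 were higher with LK34 and 0 lower, against 18 (0.0798%) and 1 (0.00443%) of all 22548 probe sets. The median log2 difference of the 30 was 0.471, against 0.008 over all probe sets above the floor.

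The reporter gene gst-4, a classical SKN-1 target, had intensities of 942, 869.8 and 971 on the LK34 arrays. On the LK35 arrays gst-4 read 4.61, 8.46 and 16.12, and on the DMSO arrays 15.97, 6.56 and 16.12. LK35 thus lay within the range of DMSO apart from array A at the floor, whereas the LK34 arrays lay close together at a far higher level. The log2 difference between the compounds was 6.76 ± 0.43 (SE, n = 3 arrays per group; limma adjusted p = 1.01e-05). It was called again without each of the 6 arrays in turn, and not with the spread of the 6 arrays alone (adjusted p = 0.222).

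Another family member, gst-5, showed the same separation at a higher baseline. Its LK34 arrays read 1893, 1345 and 739.8, its LK35 arrays 52.0, 103 and 82.8, and its DMSO arrays 121, 70.1 and 84.3. The lowest LK34 array was far above the highest LK35 array, and LK35 was level with DMSO. The difference was 4.02 ± 0.35 on the log2 scale (limma adjusted p = 0.00016). Here too the call held without each array in turn.

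Members with low levels in the other groups were also called. The LK34 arrays of gst-19 read 170.1, 157 and 166, while the LK35 arrays read 4.61, 4.66 and 5.15 and all DMSO arrays 4.61, at or near the floor. Its log2 difference was 5.10 ± 0.03 (limma adjusted p = 5.19e-17). That small standard error draws on groups whose arrays lie at the floor, and with the 6 arrays alone it was 0.0591 (adjusted p = 0.000492). The gst-19 probe set carries a suffix that marks probes shared between similar transcripts. The called probe sets of cdr-4, oac-14, R08F11.4 and dhs-20, described below, carry the same suffix. For gst-24 the LK34 arrays read 104, 348 and 154, the LK35 arrays 16.5, 18.5 and 18.4, and the DMSO arrays 17.4, 13.1 and 16. Its difference was 3.32 ± 0.32 (limma adjusted p = 0.000526), although the LK34 arrays spread widely among themselves.

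The calls of gst-12, gst-13 and gst-39 were less firm. For gst-12 the LK34 arrays read 42.6, 38.2 and 20.2 and the LK35 arrays 4.71, 4.61 and 4.71, a difference of 2.78 ± 0.43 on the log2 scale (limma adjusted p = 0.0353). For gst-13 they read 708, 574 and 489.9 against 65.0, 188 and 134, with DMSO between them at 263, 259 and 307. This is the called transferase for which LK35 lay below every DMSO array and LK34 above every one. The difference between the compounds was 2.31 ± 0.37 (limma adjusted p = 0.0412), while neither compound differed from DMSO past the threshold (LK34 1.08, adjusted p = 0.166; LK35 -1.23, adjusted p = 0.107). For gst-39 the arrays read 261, 179 and 151 with LK34 and 26.4, 58.6 and 49.1 with LK35, a difference of 2.18 ± 0.35 (limma adjusted p = 0.0414). Each of these 3 calls was made again in only 1 of the 6 fits that left out an array: gst-12 without LK34 C (adjusted p = 0.0234), gst-13 without LK35 B (0.0194) and gst-39 without LK35 B (0.045). In the other fits their adjusted p, by limma, reached 0.184 for gst-12, 0.18 for gst-13 and 0.18 for gst-39.

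**Figure D2:**
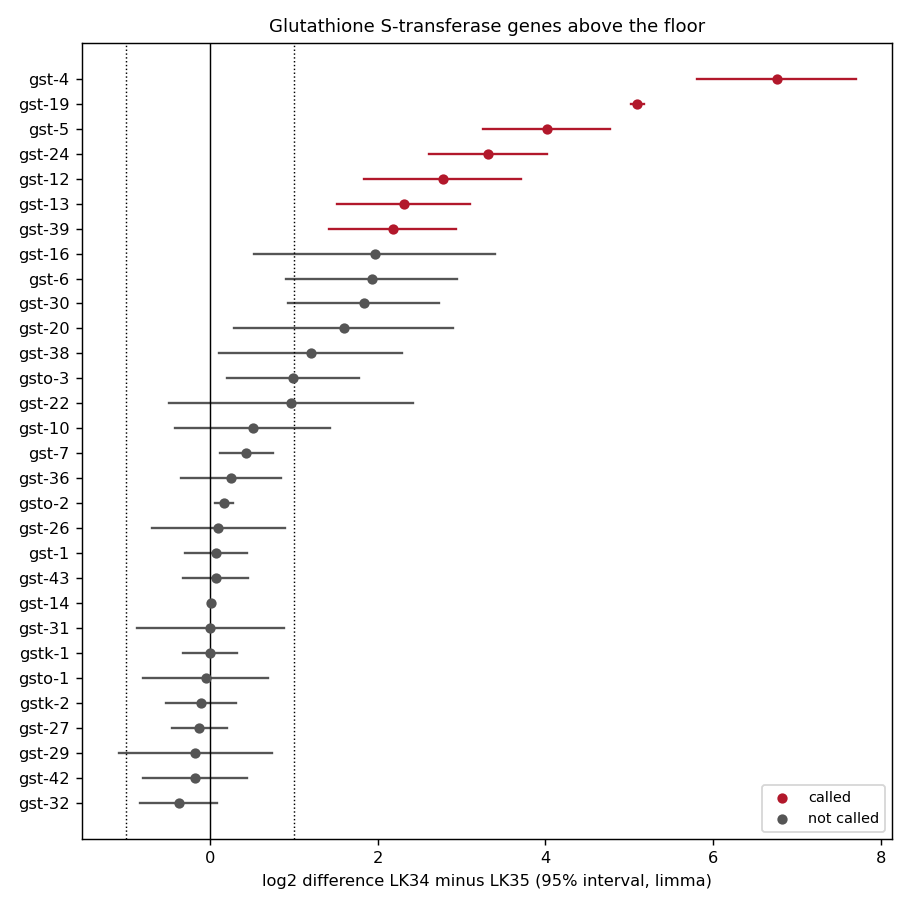
The log2 difference LK34 minus LK35 (points) with its 95% interval from limma (bars) for the 30 glutathione S-transferase genes above the floor, each read by its brightest probe set; red marks the 7 called genes and dotted lines mark 2-fold. The called genes run from gst-4 (6.76) to gst-39 (2.18), and the lower part of the list is centred near 0.

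The remaining 23 transferases above the floor were not called, and they were of several kinds. The 95% interval of 8 lay above 0 and that of 15 spanned it. An interval wholly within 2-fold was found for 14, which include the abundant gst-1 (4538 ± 627 with LK34 and 4301 ± 509 with LK35, SD, n = 3; difference 0.08, interval -0.29 to 0.44) and the kappa-class gstk-1 (822 ± 77.9 and 822 ± 70.9; interval -0.32 to 0.32). By contrast gst-6, with 594, 548 and 385 against 95.02, 188 and 128, had groups that do not overlap and a difference of 1.93 ± 0.47, yet missed the threshold (limma adjusted p = 0.491). Another member behaved differently again: gst-10 was far above DMSO with both compounds, at 537, 532 and 569 with LK34 and 290.3, 459 and 425 with LK35 against 14.1, 7.41 and 15.4. Between the compounds gst-10 differed by 0.51 ± 0.43, with an interval from -0.42 to 1.44.

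Called and uncalled transferase genes lay side by side. In the RefSeq annotation (assembly WBcel235) gst-20, gst-24, gst-15, gst-14, gst-12, gst-16, gst-19, gst-17 and gst-18 follow each other on chromosome II without another protein-coding gene between them. Of this run gst-24, gst-12 and gst-19 were called. The probe sets of gst-15, gst-17 and gst-18 lay at the floor on all 6 arrays, and gst-14 left it on a single array (4.71, LK34 A). For gst-16 the LK34 arrays read 28.6, 24.01 and 8.43 against 4.61 on each LK35 array, which passed no threshold (at least 3.9-fold; limma adjusted p = 1).

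The narrower list of SKN-1 phase II genes gave 4 of 12 genes higher and 0 lower, namely gst-4, gst-5, gst-12 and gst-13. These 4 are also counted in the family above. At an unadjusted p under 0.05, 10 of the 12 were higher, and for 7 the groups do not overlap and differ at least 2-fold. Over all 22548 probe sets these counts were 414 and 101, and 18 (0.0798%) were called higher. The list's median log2 difference was 1.516. The member gcs-1, the rate-limiting enzyme of glutathione synthesis, read 967, 794 and 879 with LK34 against 384, 764 and 696 with LK35 on its brighter probe set. That is a difference of 0.57 ± 0.20, which did not pass (limma adjusted p = 1), and LK35 A (384) was the lowest of the 6 arrays. Without LK35 B or LK34 C, 3 members were higher, and without LK34 A, LK34 B, LK35 A or LK35 C, 2 were. The skn-1 gene itself was not called: its 2 probe sets clear of the floor gave 0.03 (interval -1.10 to 1.16) and -0.44 (interval -2.19 to 1.31), both of which reached beyond 2-fold.

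The largest difference of all lay in fmo-2, a flavin-containing monooxygenase gene known as a HIF-1 target linked to life span. With LK34 its intensities were 4356, 4433 and 2233. With LK35 they were 4.61, 4.66 and 4.66, and every DMSO array read 4.61. The gene was therefore among the well-expressed ones with LK34 and at or barely above the floor in the other groups. The log2 difference was 9.56 ± 0.36 (limma adjusted p = 2.24e-08), a ratio of 756 that depends on where the floor lies; an offset of 16 before the logarithm gave 7.42. The call held in all 18 alternatives, including the spread of the 6 arrays alone (adjusted p = 0.0282). Of the other family members above the floor, fmo-1 and fmo-5 had intervals within 2-fold on each probe set, as on the brighter fmo-1 probe set (difference 0.10, interval -0.40 to 0.60). The brighter fmo-4 probe set did not.

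**Figure D3:**
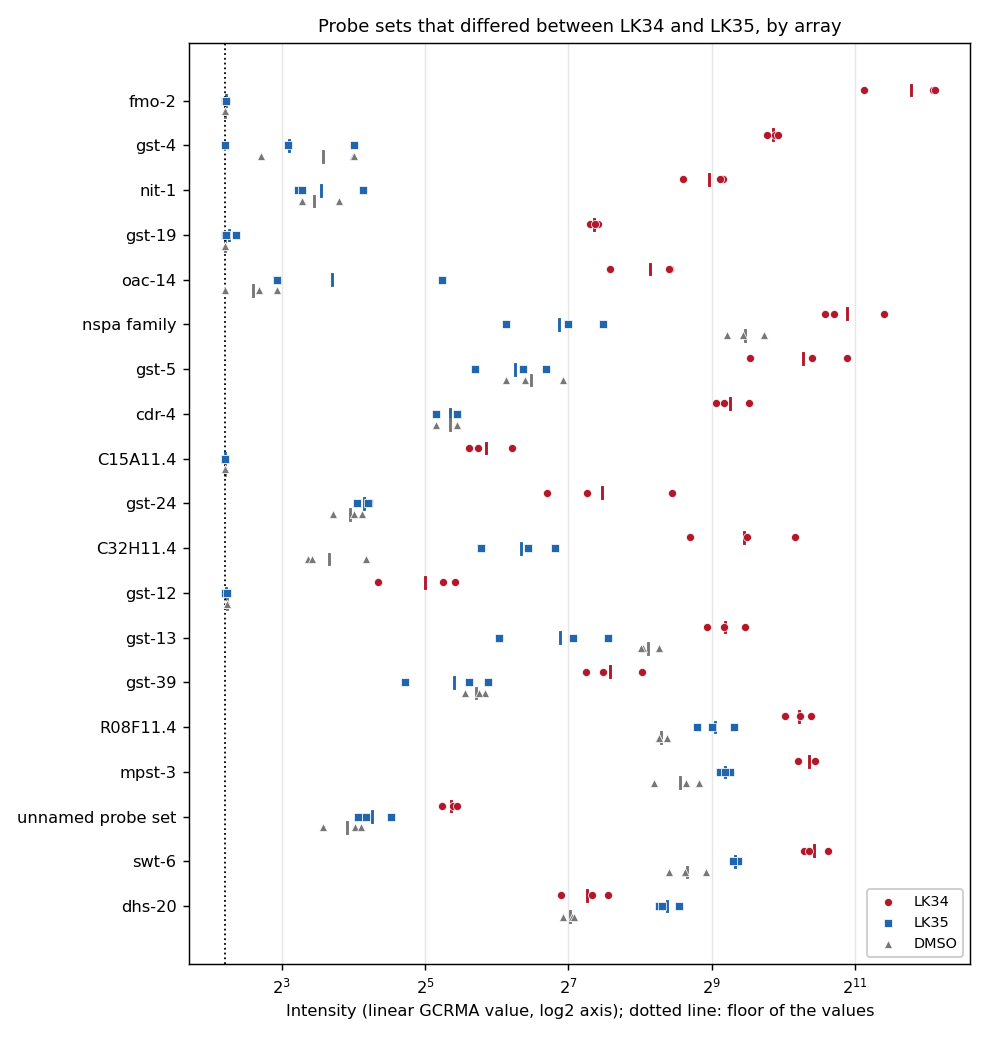
Intensity on each array (points; log2 axis) of the 19 called probe sets with LK34, LK35 and DMSO; short vertical bars are geometric means of 3 arrays and the dotted line is the floor. In all rows but dhs-20, at the bottom, the LK34 arrays lie to the right of all LK35 arrays, and for genes such as fmo-2, gst-19, gst-12 and C15A11.4 the LK35 and DMSO arrays lie together at or near the floor.

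Among genes of hydrogen sulfide and HIF-1, nit-1 stood out. This gene encodes a nitrilase and read 571, 555 and 387 with LK34, 9.39, 17.5 and 9.71 with LK35, and 9.71, 13.9 and 9.71 with DMSO. LK35 and DMSO occupied the same range. The difference between the compounds was 5.41 ± 0.42 (limma adjusted p = 5.77e-05), and it was called without each array in turn though not with the 6 arrays alone (adjusted p = 0.13). Of the 18 genes on the list, 14 were above the floor, 1 was called higher and 0 lower. The calls over all 22548 probe sets were 18 higher (0.0798%) and 1 lower (0.00443%). Unadjusted p fell under 0.05 for 8 members, each with the higher level in LK34, and the median log2 difference was 0.767. Over all 22548 probe sets it did so for 414 higher and 92 lower.

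Other members of the list were higher with LK34 than with LK35 without passing the threshold. Among them, cysl-2, sqrd-1 and phy-2 were above DMSO with both compounds. The cysteine synthase-like gene cysl-2 read 570.3, 587 and 610.5 with LK34 and 249.7, 124 and 219.5 with LK35, against 11.6, 12.05 and 7.78 with DMSO. Its LK34 arrays sat close together above the more scattered LK35 arrays, and the difference was 1.64 ± 0.47 (limma adjusted p = 1). The sulfide oxidase gene sqrd-1 read 108, 137 and 155 against 49.7, 54.02 and 68.9, with DMSO between 6.45 and 7.38, and differed by 1.21 ± 0.35 (limma adjusted p = 1). A prolyl hydroxylase gene of collagen, phy-2, read 390.1, 438 and 489 against 228, 288 and 179, with DMSO from 15.86 to 16, and differed by 0.95 ± 0.22 (limma adjusted p = 0.388). For semo-1, a methanethiol oxidase gene, the LK34 arrays read 87.0, 99.2 and 149.6 and the LK35 arrays 43.7, 44.0 and 41.4, a difference of 1.34 ± 0.32 (limma adjusted p = 0.422). None of these 4 genes had overlapping groups, and all 4 were picked after their values were seen. The hif-1 gene differed by 0.73 ± 0.33 (interval 0.03 to 1.44; limma adjusted p = 1).

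**Figure D4:**
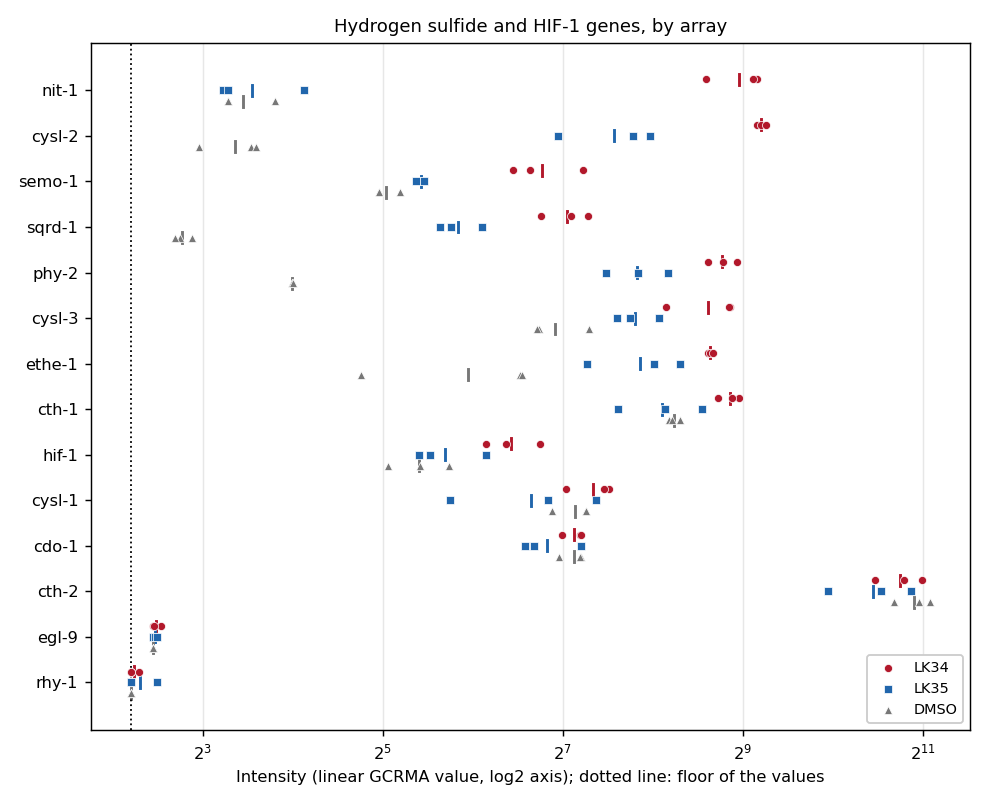
Intensity on each array (points; log2 axis) of the 14 genes of the hydrogen sulfide and HIF-1 list above the floor, 1 probe set per gene, with geometric means as bars. The LK35 arrays of nit-1 lie with DMSO, whereas those of cysl-2, sqrd-1 and phy-2 lie between DMSO and LK34.

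A sulfur gene outside that list, mpst-3, named for mercaptopyruvate sulfurtransferase, was past the threshold on both of its probe sets. The first read 1388, 1388 and 1175 with LK34 and 556, 612 and 584 with LK35, and the DMSO arrays lay between 293 and 451. The second read 963, 952 and 906 against 519, 523 and 543, with DMSO between 161 and 182. On both, all 3 groups were separate, in the order DMSO, LK35, LK34. The differences between the compounds were 1.17 ± 0.13 (limma adjusted p = 0.00286) and 0.83 ± 0.06 (adjusted p = 3.28e-05), the second under 2-fold. Both stayed past the threshold without each array in turn.

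The metal list of 31 genes had 1 member higher and 0 lower, against 18 (0.0798%) and 1 (0.00443%) of all 22548 probe sets. The higher member was cdr-4, of the cadmium-responsive family, with 577, 734 and 534 on the LK34 arrays and 35.5, 43.7 and 43.7 on the LK35 arrays. The DMSO arrays held the same values as LK35 in another order (43.7, 35.5 and 43.7). Whether such exact repeats are measured levels or a lower limit of the processing was not tested, so the fold may be a bound. The difference was 3.90 ± 0.47 (limma adjusted p = 0.00477), and it was past the threshold in each of the 17 alternatives that held the probe set. The metallothionein gene mtl-2 leaned the other way on its 3 probe sets. The most different of them read 8351, 10335 and 11865 with LK34 and 15814, 15040.3 and 15332 with LK35, which do not overlap, a difference of -0.61 ± 0.14 (limma adjusted p = 0.339). Both compounds were above DMSO there (4437, 3957 and 4548).

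Among defense genes the called difference was in C32H11.4, a member of the infection response list. Its LK34 arrays read 1142, 722 and 416 and its LK35 arrays 54.6, 113 and 86.8. The DMSO arrays read 10.3, 10.7 and 18.1, so that LK35 lay between the solvent and LK34 on every array. The difference between the compounds was 3.11 ± 0.40 (limma adjusted p = 0.00725), and it held without each array in turn, though not with the 6 arrays alone. The infection response list of 62 genes otherwise gave 0 calls, and the lysozymes (17 genes), C-type lectins (232 genes), saposin-like proteins (20 genes) and epidermal antimicrobial peptides (42 genes) gave 0 in each direction. Of all 22548 probe sets, 18 (0.0798%) were called higher and 1 (0.00443%) lower, so such lists would hold few calls anyway. Unadjusted p fell under 0.05 for 6 infection response and 6 epidermal peptide genes higher with LK34 and 0 lower. The counts higher and lower were 3 and 0 for lysozymes, 5 and 1 for lectins and 0 and 1 for saposin-like proteins. Over all probe sets they were 414 and 92. The lysozyme gene lys-7 had groups that do not overlap, at 7793, 5831 and 3707 with LK34 and 1222, 2654 and 1387 with LK35, and a difference of 1.74 ± 0.38 that did not pass (limma adjusted p = 0.327).

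The other genes higher with LK34 belong to no common list. oac-14, an acyltransferase gene, read 341, 337 and 192 with LK34 and 7.6, 37.6 and 7.6 with LK35, a difference of 4.44 ± 0.68 (limma adjusted p = 0.0336). LK35 B was the high array of its group there, and oac-14 was called without that array (adjusted p = 0.00516) but in none of the 5 other omissions (adjusted p up to 0.17). C15A11.4, for which no function is given here, read 73.8, 48.9 and 53.3 with LK34 and lay at the floor on all LK35 and DMSO arrays. It was at least 12.5-fold higher (limma adjusted p = 1.03e-09 over all arrays, 0.058 with the 6 arrays alone). A probe set without a gene name read 41.9, 43.5 and 37.7 against 23, 16.6 and 18.1, a difference of 1.10 ± 0.17 (limma adjusted p = 0.03). It was called in 1 of the 6 omissions, that of LK35 A (adjusted p = 0.0203; up to 0.157 in the others), and was lost after quantile normalization (0.648) and median centring (0.0964).

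Smaller differences at high levels were called for swt-6 and R08F11.4. swt-6, a member of the SWEET sugar transporters, read 1252, 1572 and 1312 with LK34, 644, 662 and 626 with LK35 and between 339 and 484 with DMSO. The difference of 1.09 ± 0.16 passed (limma adjusted p = 0.03) but was lost without any 1 of the 6 arrays (adjusted p from 0.0542 to 0.157). R08F11.4 read 1196, 1333 and 1044 with LK34 and 637, 446 and 511 with LK35, a difference of 1.17 ± 0.16 (limma adjusted p = 0.0154), and was called in 2 of the 6 omissions, those of LK34 C (adjusted p = 0.0191) and LK35 A (0.0109). For both genes LK35 was itself above DMSO (0.68, adjusted p = 0.0377, and 0.74, adjusted p = 0.0235).

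A probe set shared by several genes of the nspa family, nematode-specific peptides, differed in both directions from the solvent. It read 2699.5, 1668 and 1524 with LK34, 70.2, 127 and 178 with LK35, and 851, 693 and 592 with DMSO. All LK34 arrays lay above DMSO and all LK35 arrays below. The difference between the compounds was 4.02 ± 0.32 (limma adjusted p = 5.77e-05). Against DMSO, LK34 was higher by 1.43 (adjusted p = 0.0239) and LK35 differed by -2.59 (adjusted p = 0.000453). The individual nspa genes cannot be separated on this probe set. The major sperm proteins, another set of reproductive genes, had 0 of 28 members called and a median of 0.293. The calls over all 22548 probe sets were 18 higher (0.0798%) and 1 lower (0.00443%).

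dhs-20, a short-chain dehydrogenase gene, was the single probe set called lower with LK34. It read 118.7, 161 and 187 with LK34 and 309, 318 and 374 with LK35, and the DMSO arrays read 132, 135 and 122. LK34 therefore spread around the DMSO level, and LK35 was above both. The log2 difference was -1.12 ± 0.17 (limma adjusted p = 0.0353). Against DMSO it was 0.24 with LK34 (adjusted p = 0.797) and 1.36 with LK35 (adjusted p = 0.000657). The call was lost without LK34 A, LK34 B or any 1 LK35 array (adjusted p up to 0.189) and kept without LK34 C (0.0191). The dhs-20 probe set carries the suffix of shared probes, and among unambiguous probe sets alone 0 were called lower. Of the 34 short-chain dehydrogenase genes, 0 were higher and 1 lower, against 18 (0.0798%) and 1 (0.00443%) of all 22548 probe sets. A lower gene outside the threshold, the small GTPase gene rab-7, read 39.2, 56.3 and 56.3 with LK34 against 92.9, 94.9 and 117 with LK35 and did not pass (difference -1.02 ± 0.19; limma adjusted p = 0.112).

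Set against DMSO, the 18 probe sets higher with LK34 fell into different patterns. With LK34, 17 were above DMSO at an adjusted p under 0.05, the exception being gst-13. With LK35, 13 were not past the threshold against DMSO, 4 were above it (C32H11.4, R08F11.4, mpst-3 and swt-6) and 1, the nspa probe set, was below. The 18 were chosen for higher levels on these same LK34 arrays than on these LK35 arrays. The counts against DMSO are therefore partly fixed by that choice and describe these probe sets only. Both contrasts also share the DMSO arrays.

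Just outside the threshold lay genes with differences as large as many that were called. The least significant probe set past the threshold had an adjusted p of 0.0414 and the next one 0.0532. This was F55G11.8, an infection response gene, with 72.7, 91.1 and 23.9 against 9.21, 10.3 and 9.35. The alcohol dehydrogenase gene adh-1, abundant in every group, read 18231, 16055 and 11466 with LK34 and 3197, 4690.3 and 3424 with LK35. The adh-1 groups are well apart, with a difference of 2.01 ± 0.35, but the limma adjusted p was 0.0855. bigr-1 read 85.7, 118.7 and 166 against 10.2, 10.2 and 16.6, a difference of 3.32 ± 0.60 (limma adjusted p = 0.109). Of the 101 probe sets with separate groups and a 2-fold difference in favour of LK34, 83 were not past the adjusted threshold. Among the 101, LK35 B was the highest LK35 array in 72 and LK35 A the lowest in 83. LK34 C was the lowest LK34 array in 64 of them.

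Most detoxification and stress families showed no called difference. Of all 22548 probe sets, 18 (0.0798%) were called higher and 1 (0.00443%) lower. At those shares, lists of these sizes would hold few or no calls in any case. The cytochrome P450s (75 genes, median 0), UDP-glucuronosyltransferases (64 genes, median 0.179), ABC transporters (53 genes, median 0.179) and nuclear hormone receptors (264 genes, median 0.031) had 0 members higher and 0 lower. The same held for the cytosolic heat shock proteins (19 genes), reticulum chaperones (17 genes), mitochondrial chaperones (12 genes), proteasome subunits (31 genes) and DNA damage genes (47 genes). Among the P450s, unadjusted p fell under 0.05 for 3 genes in each direction. It did so for 5 UDP-glucuronosyltransferase, 5 nuclear hormone receptor and 1 ABC transporter genes, each higher with LK34. Cuticle collagens (159 genes) had 0 calls, with an unadjusted p under 0.05 for 10 genes, each lower with LK34, and a median of -0.105. Over all 22548 probe sets, unadjusted p fell under 0.05 for 414 higher and 92 lower. In all, 42 of 51 gene lists held no gene past the adjusted threshold.

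Genes used by the study as reporters or knocked down as upstream regulators were compared whatever their values. The reporter gst-4, described above, was the called one among them. The infection reporter irg-5 read 1248, 1262 and 1294 with LK34 and 1320.0, 1703 and 1632 with LK35, all far above DMSO at 168, 105 and 87.8. The LK34 arrays lay just below the LK35 arrays, and the difference of -0.28 had an interval from -0.80 to 0.23, within 2-fold. The reticulum chaperone gene hsp-4 read 1301, 1405 and 1457 with LK34 and 1473, 1126 and 1381 with LK35 (difference 0.07, interval -0.27 to 0.42), and the proteasome gene rpt-3 differed by -0.21 (interval -0.55 to 0.14). The small heat shock gene hsp-16.1 shares its probe set with hsp-16.11, which read 14.5, 36.5 and 125 with LK34 and 35.1, 22.5 and 39.3 with LK35. With an interval from -1.61 to 2.34, that probe set does not show whether the compounds differ or act alike.

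The kinase gene pmk-1 gave a difference of 0.06 (interval -0.54 to 0.65). The brightest probe set of atf-7 gave -0.12 (interval -0.57 to 0.33) and that of nhr-49, a nuclear receptor of fat metabolism, -0.16 (interval -0.60 to 0.28). The intestinal GATA factor gene elt-2 gave -0.01 (interval -0.47 to 0.44) and the mediator subunit gene mdt-15 0.02 (interval -0.81 to 0.86). These 5 intervals lay within 2-fold. That of daf-16, the FOXO factor, reached from -0.05 to 1.11 on its brightest probe set, where LK35 A (121) was the lowest of the 6 arrays. Abundance of these transcripts says nothing of the activity of the proteins.

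**Figure D5:**
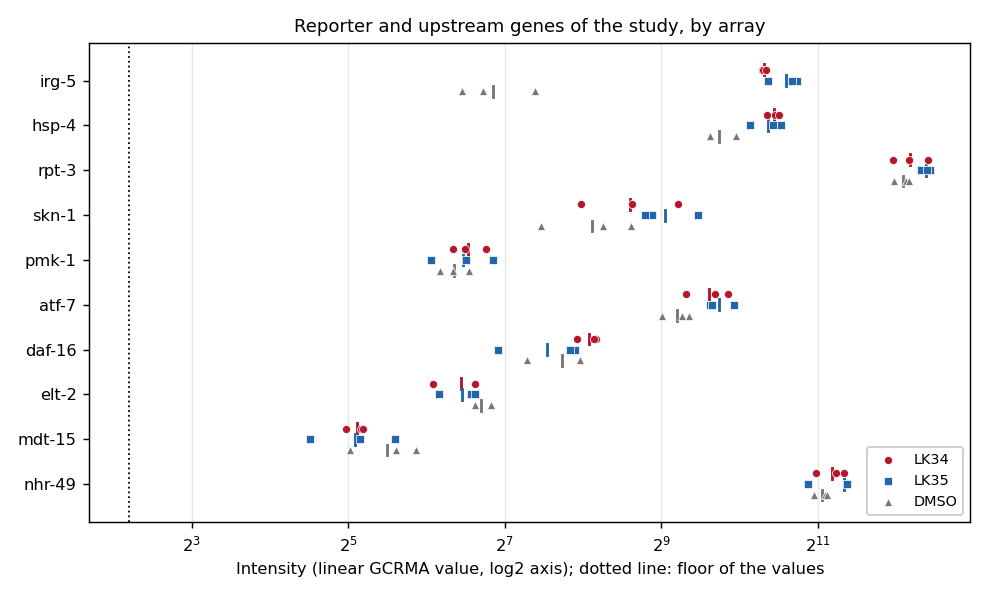
Intensity on each array (points; log2 axis) of 10 reporter and upstream genes, 1 probe set per gene, with geometric means as bars; gst-4 and the shared hsp-16.1 probe set are not drawn. Among the genes drawn, the LK34 and LK35 ranges overlap except for irg-5, slightly lower with LK34 and above DMSO with both, and daf-16, where LK35 A (121) lies apart; the probe set shown is the brightest of each gene.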

How the data were processed

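Whole-animal RNA was hybridized to Affymetrix arrays. The authors processed the arrays with GCRMA (version not given in the sources used here) and deposited 1 linear intensity per probe set and array, from 4.605 to 58200.7. Because GCRMA normalizes between arrays, a shift shared by every transcript cannot be seen. All array columns were used. The 77 control probe sets of 22625 were dropped. Symbols follow the platform annotation brought up to date with RefSeq: 20810 probe sets name a single gene (20702 of them in RefSeq), 843 more than 1, and 895 have no gene. Means and SD refer to linear values, while SE and 95% intervals come from limma on the log2 scale.

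Intensities were log2 transformed, no offset added. A limma model (version 3.58.1; R 4.3.3) with a mean for each of 6 groups was fitted to the 18 arrays, leaving 12 residual degrees of freedom with 0.3323 from the prior, and p-values were adjusted by Benjamini-Hochberg across 22548 probe sets. A separately written limma fit was tried on simulated LK34, LK35 and DMSO arrays, not the fit to 18 arrays itself. Changes were planted only in probe sets well above the floor, so that trial says nothing of calls near it. It is not stated whether the lettered samples are separate cultures, so p-values reflect the spread between these samples, which may be technical. The highest correlation of any pair of arrays was 0.9921, and none was a duplicate. The number of arrays limits the precision.

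Members, gene lists and tests were chosen with earlier results of these data known. The rule for naming genes took, from called probe sets with separate groups, up to 12 at each end of the log2 difference, up to 4 called members per list (every one where a list had 5 or fewer), and the reporter and upstream genes. Further called, uncalled or near-threshold genes, gst-39, R08F11.4, mpst-3 and swt-6 included, were named after their values were seen. No promoter or protein sequence was analysed here. The alternatives tried were other sets of arrays, a replicate block, normalizations, filters, thresholds, priors and the omission of each array.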

Additional observations from a re-analysis of the deposited data

How the results depend on the processing

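Of the 20 probe sets past the adjusted threshold, 0 changed direction in any of 18 alternatives. This was largely fixed in advance and is no sign of stability. All 20 separated the groups, so leaving out 1 array could not reverse them. Several other alternatives changed the spread or the threshold but not the difference. Of the 20, 12 stayed past the threshold without each of the 6 arrays in turn. The counts of calls, 18 higher and 1 lower with LK34, moved more. They were 3 and 0 with the 6 arrays alone, 7 and 0 with LK34, LK35 and DMSO arrays alone, 17 and 2 after quantile normalization, 23 and 2 after median centring, 28 and 2 among the 9033 brighter probe sets, 11 and 0 at an adjusted p under 0.01, 12 and 0 with unambiguous probe sets alone, and 215 and 44 with array weights, whose estimate stopped before it converged. Groups that do not overlap and differ 2-fold gave 101 and 11. Leaving out 1 array gave 11 to 19 higher and 0 to 1 lower. An offset of 16, no fold limit and a trended, robust prior gave 18 or 19 higher and 1 lower. With the replicate letter as a block, the counts were 12 and 1. The labels do not say whether a letter links arrays across groups. Between LK34 and LK35, deviations of same-lettered arrays correlated at -0.0572 (A), 0.199 (B) and 0.516 (C). Those of differently lettered arrays ranged from -0.555 to 0.4. Among the glutathione S-transferases, 4 to 6 genes were higher without 1 array, 1 with the 6 arrays alone and 14 with array weights. Array weights also brought nhr-49 (-0.42) and a floor-level skn-1 probe set (0.01) past the threshold. The causes were not tested. Values at the floor have no order below it, which limits folds of genes such as fmo-2. Whether exactly repeated values above the floor, as for cdr-4, nit-1 and gst-4, limit folds in the same way was not tested.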
